A study of Mus musculus with 8 samples.

Results

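Embryonic fibroblasts lacking the kinase gene Tbk1 were set against wild-type (WT) fibroblasts 4 h after a mock transfection, that is, with no B-DNA given, to describe cell identity and signalling state in the resting cultures. The comparison rests on 2 of the series' 8 one-colour Affymetrix arrays, 1 of Tbk1-/- Ikbke+/+ cells (Tbk1-/- mock) and 1 of Tbk1+/+ Ikbke+/+ cells (WT mock), chosen by their labels alone. The other 6 arrays hold Tbk1-/- and WT cells transfected for the same time with B-DNA, the synthetic duplex poly(dA-dT)-poly(dT-dA), and Tbk1-/- Ikbke-/- and Ikbke-/- cells after mock or B-DNA transfection. All cells came from the mixed strain C57BL/6 x 129Ola, and every culture, mock included, went through a transfection. Each genotype may come from 1 embryo or 1 culture, as the labels name no pools or separate cultures. Genotype and culture therefore cannot be told apart, and with 1 array a group a difference between these 2 arrays has no replicate check.

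TBK1 is a serine kinase that, with its relative IKKε (the product of Ikbke), phosphorylates the transcription factors IRF3 and IRF7 after foreign nucleic acid or bacterial products are sensed. The phosphorylated factors switch on interferon beta, and secreted interferon acts back on the cell through its receptor to turn on interferon-stimulated genes, a few of which are also made at a low level in resting cells. Embryonic fibroblasts are cultures of mixed connective tissue cells from minced embryos, which often carry other cells such as macrophages.

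The deposited signal was multiplied on each array by a factor that set its 2% trimmed mean to 500 (1.96 for Tbk1-/- mock, 2.11 for WT mock). Scaled signals are given throughout, as linear values of the array with no unit. The lowest 40% of all values, under a floor of 122, were treated as not measured in order. A gene was counted as different when the 2 arrays were at least 2-fold apart and the brighter one read 244 or more, and a ratio against a value under the floor is given as a bound ("at least"). Of 12393 genes, 8537 reached the floor on 1 or both arrays and are called measured, and 7510 reached it on both. A gene that reached the floor on 1 array alone can be counted only as higher on that array. The ratio of 3' to 5' signal, a measure of RNA integrity and labelling, was 1.32 in Tbk1-/- mock and 0.95 in WT mock for Actb, and 0.86 and 0.82 for Gapdh.

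The labels were checked on the targeted gene. Tbk1, on its brighter probe set, read 226 in Tbk1-/- mock and 501 in WT mock. It read 305 and 989 in the B-DNA pair of the same genotypes, 290.0 and 472 in Tbk1-/- Ikbke-/- mock and Ikbke-/- mock, and 389.6 and 910.0 in Tbk1-/- Ikbke-/- B-DNA and Ikbke-/- B-DNA. Every Tbk1-/- array was below its Tbk1+/+ partner, but none was under the floor; where the probe lies relative to the deleted part was not tested. Xist, a non-coding RNA made from the silenced X of female cells, read 2950.1 in Tbk1-/- mock and 3002 in WT mock, and the Y-linked gene Eif2s3y read 1.96 and 1.48. A further, dimmer Xist probe set differed, with 100.4 in Tbk1-/- mock, under the floor, and 412 in WT mock. In Tbk1-/- Ikbke-/- mock and Ikbke-/- mock, Xist read 209 and 138 and Eif2s3y 153 and 287.

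Resting Tbk1-/- cells had 215 genes 2-fold or more higher and 321 lower than WT cells, which is 2.52% and 3.76% of the 8537 measured genes. The median log2 ratio of all measured genes was -0.04. The split depended on scaling. With the arrays set to equal medians, which moves the median by 0.13, 291 were higher and 262 lower, so that the higher genes made up 52.6% of those counted, against 40.1% in the main setting. Without further scaling 288 were higher and 310 lower. The named genes below are given relative to the main scaling.

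**Figure D1:**
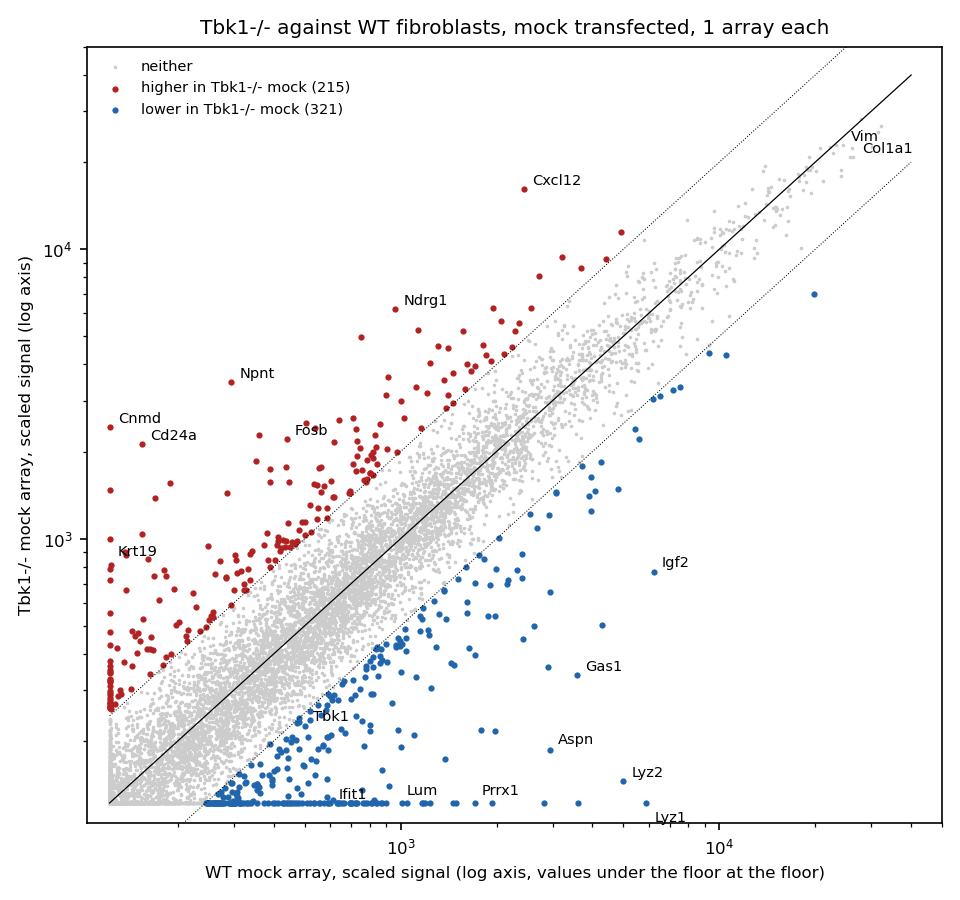
Scaled signal of each measured gene on the Tbk1-/- mock array (vertical log axis) against the WT mock array (horizontal log axis), with values under the floor of 122 drawn at the floor; the solid line marks equal signal and the dotted lines 2-fold. The 215 genes counted higher in Tbk1-/- mock are red and the 321 counted lower are blue; Col1a1 and Vim lie near the line of equal signal, and Prrx1 and Lyz1 at the floor on the Tbk1-/- mock array.

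A pair of arrays that shares no array with the mock pair, Tbk1-/- B-DNA over WT B-DNA, repeated much of the difference. Of the 215 higher genes, 142 (66.0%) were also counted higher there and 2, Cklf and Isg20, lower. Of the 321 lower genes, 179 (55.8%) were also counted lower there and 1, Gas1, higher. In that pair 4.8% of all 8891 measured genes were counted higher and 6.28% lower, so the shared genes made up 33.3% of its higher and 32.1% of its lower genes. Among the 15 genes with the highest and the 15 with the lowest ratio in the mock pair, 14 of each were counted the same way in the B-DNA pair.

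The same change of Tbk1 on another background, Tbk1-/- Ikbke-/- mock over Ikbke-/- mock, gave another picture. The cultures of this pair also differed from those of the mock pair in Xist and Eif2s3y, as given above. Background and other differences between the cultures therefore cannot be told apart. Of the 215 higher genes 25 (11.6%) were counted higher there and 73 (34.0%) lower. Of the 321 lower genes 59 (18.4%) were counted lower there and 60 (18.7%) higher. In that pair 8.92% of 8809 genes were counted higher and 7.14% lower. Most differences between resting Tbk1-/- and WT cells were thus found again on B-DNA arrays of the same genotypes. In the other cultures the higher genes were counted higher at near the 8.92% of all genes, and more often lower. The lower genes were counted about equally often in each direction there.

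The test used all 8 arrays. A limma fit with a level for each genotype and a treatment effect for each Tbk1 status, which has 2 residual degrees of freedom, called 56 of 9626 genes higher (0.582%) and 96 lower (0.997%) in Tbk1-/- than in WT cells at an adjusted p under 0.05. All 152 were also counted in the mock pair. Its error comes from how far the 2 genotypes of 1 Tbk1 status differ in their response to B-DNA. No spread in level between cultures of a genotype enters it. A call therefore says nothing on whether Tbk1 or another difference between the cultures is behind it. The calls were lost when any 1 of the 8 arrays was left out: 0 higher and 0 lower remained in each of the 8 fits, the lowest adjusted p being 0.283.

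The Tbk1-/- cells were fibroblasts by their main products. Col1a1 and Col1a2, the chains of type I collagen, read 20852 and 25364 in Tbk1-/- mock and 26349.8 and 31526 in WT mock. Vim, the intermediate filament protein of mesenchymal cells, read 22851 and 24410.2, and Pdgfra, a platelet-derived growth factor receptor of fibroblasts, read 1063 and 885. Thy1, a surface protein of many fibroblasts, read 2763 in Tbk1-/- mock and 5184 in WT mock. None of these was counted; further probe sets of Col1a1, Vim and Pdgfra gave log2 ratios of 0.92, 0.24 and -0.30. Of 34 measured fibroblast and mesenchymal markers, 6 were lower and 0 higher (17.6% lower, against 3.76% of all genes), and their median log2 ratio was -0.44.

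The lower ones included a defining gene of limb and body wall mesenchyme. Prrx1, a homeobox transcription factor of that mesenchyme, read 101 in Tbk1-/- mock and 2821 in WT mock, at least 23.1-fold lower. It read 103 and 2730.3 in Tbk1-/- B-DNA and WT B-DNA, and 3762 and 1701 in Tbk1-/- Ikbke-/- mock and Ikbke-/- mock. The gene was thus under the floor on both Tbk1-/- arrays and at 1701 or more on the other 6, also where Tbk1 and Ikbke were both absent. Each of the 4 Prrx1 probe sets was under the floor on both Tbk1-/- arrays, and they read between 655 and 4360 on the other 6. In bulk RNA, fewer cells of a type and less RNA per cell cannot be told apart.

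Lum, a small leucine-rich proteoglycan that binds collagen fibrils, read 117 in Tbk1-/- mock and 1459.7 in WT mock (at least 11.9-fold lower). Mfap5, a microfibril protein, read 396 and 1709, and Postn, the matricellular protein periostin, 6996 and 19781. Lum was again low on both Tbk1-/- arrays only, whereas Mfap5 was high only on the 2 WT arrays, with 538 and 421 in Tbk1-/- Ikbke-/- mock and Ikbke-/- mock. Pdgfrb, the second platelet-derived growth factor receptor, read 885 in Tbk1-/- mock and 2409 in WT mock, but a further probe set gave a log2 ratio of -0.56.

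Of the 12393 genes, 19 were under the floor on both Tbk1-/- arrays and at or above 244 on the other 6. This was read on the probe set kept for each gene. Among the 19 were Prrx1, Lum, Sfrp2, Igfbp5, Ptn, Aqp1, Col15a1, Cxcl15 and Mgst1. Neither this count nor its reverse, given below, was made for another genotype. The pattern is therefore not shown to be particular to Tbk1-/- cells. Sfrp2, a secreted Wnt inhibitor, read 119 in Tbk1-/- mock and 1929.6 in WT mock (at least 15.8-fold lower). Ptn, the heparin-binding growth factor pleiotrophin, read 37.5 and 1498 (at least 12.3-fold), and 26765 and 14476 in Tbk1-/- Ikbke-/- mock and Ikbke-/- mock. Igfbp5, a binding protein of insulin-like growth factors, read 79.6 and 1711 (at least 14.0-fold lower), against 7515 and 3269.8 in that second pair. Further probe sets of Igfbp5 and Ptn were just above the floor in Tbk1-/- mock, with 135 for Igfbp5 and 134 for Ptn, against 708 and 1149 in WT mock, so that the log2 ratios there were -2.39 and -3.10. For Ptn and Igfbp5 the WT level was itself below both cultures of the Ikbke-/- genotypes. Aqp1, a water channel, read 120.4 in Tbk1-/- mock and 3612 in WT mock (at least 29.6-fold lower).

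The reverse pattern was a signal at or above 244 on both Tbk1-/- arrays and under the floor on the other 6. It was held by 4 of the 12393 genes: Krt19, Nkain4, Vit and Bdh1. Krt19, a keratin of simple epithelia, read 995 in Tbk1-/- mock and 16.3 in WT mock, at least 8.15-fold higher, and between 9.40 and 30.4 on the other 5 arrays. It was the 1 member counted higher among 11 measured epithelial and keratinocyte markers, and Sfn, a 14-3-3 protein of epithelia, was the 1 counted lower (11.4 and 258). The epithelial list as a whole therefore gave no common direction.

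**Figure D2:**
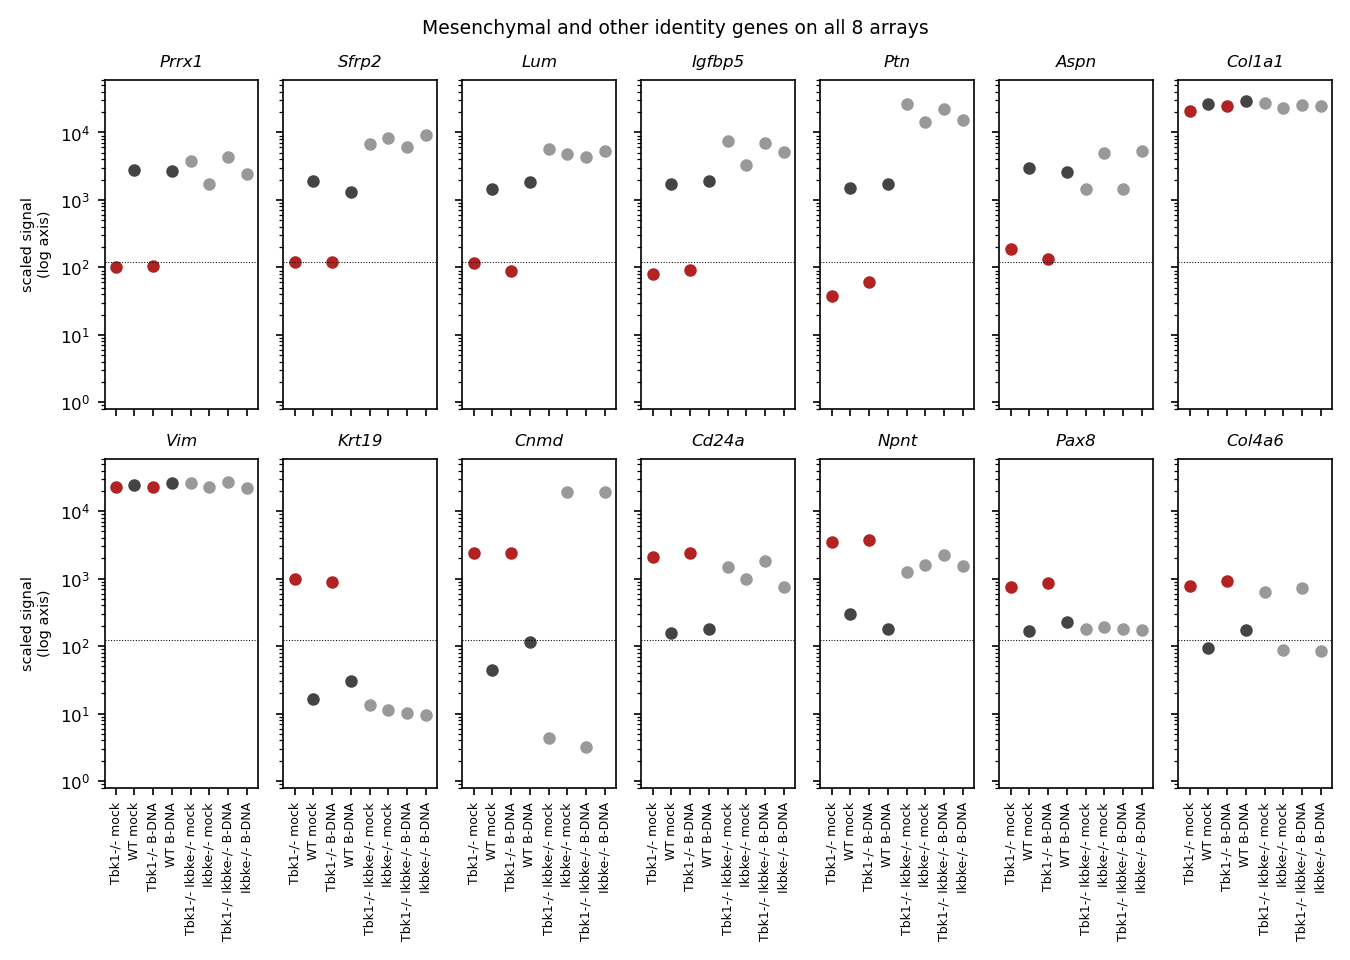
Scaled signal (log axis) of 14 genes on all 8 arrays, with Tbk1-/- arrays in red, WT arrays in dark grey, the Ikbke-/- genotypes in light grey and the floor of 122 dotted. Prrx1, Sfrp2, Lum, Igfbp5 and Ptn are at or under the floor on the 2 Tbk1-/- arrays and high on the other 6, Krt19 shows the reverse, Col1a1 and Vim are level, and Cnmd is high in both Tbk1-/- and Ikbke-/- cultures.

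Many genes of the structural matrix were lower in resting Tbk1-/- cells. Of 48 measured collagen and matrix genes, 15 were lower (31.2%) and 2 higher (4.17%), against 3.76% and 2.52% of all genes. Their median log2 ratio was -0.51, and limma called 12 of 49 lower and 1 higher. Of the 51 with a probe set, 42 reached the floor in Tbk1-/- mock and 47 in WT mock. Aspn, the proteoglycan asporin, read 186 in Tbk1-/- mock and 2941 in WT mock, a log2 ratio of -3.99, and limma gave a level difference of -4.05 (SE 0.21, adjusted p = 0.0109). Eln, the elastic fibre protein elastin, read 361 and 2905 (limma -2.93, SE 0.15, adjusted p = 0.0109). Thbs2, an adhesive glycoprotein that limits vessel growth, read 503 and 4275 (limma -3.0, SE 0.19, adjusted p = 0.0135).

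Those 3 genes did not behave alike in the other cultures. Aspn read 1440.4 in Tbk1-/- Ikbke-/- mock and 5018 in Ikbke-/- mock, and Thbs2 1258 and 2403, which is short of 2-fold. Eln read 1428 and 768, higher without Tbk1 but also short of 2-fold. Col15a1, a basement membrane collagen, read 86.5 in Tbk1-/- mock and 633 in WT mock, and Col10a1, the collagen of hypertrophic cartilage, 18.8 and 590.3. The 2 higher genes were the basement membrane components Col4a6 (789 and 94.0, at least 6.46-fold) and Nid1 (6248 and 1946, log2 ratio 1.68). A further Col4a6 probe set was at or under the floor in WT mock and gave a log2 ratio of 1.27 or more. Nid1, nidogen, links laminin to type IV collagen.

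Among matrix proteases and their inhibitors, 2 of 22 were higher (9.09%) and 3 lower (13.6%), against 2.52% and 3.76% of all genes. Plaur, the urokinase receptor, read 5214 in Tbk1-/- mock and 2294 in WT mock, and the protease inhibitor Serpinb2 365 and 180.0. Ctsk, the collagen-degrading protease cathepsin K, read 68.8 and 519, Mmp3 (stromelysin) 83.7 and 634, and Mmp13 (collagenase) 36.9 and 335. The 3 proteases were under the floor in Tbk1-/- cells and above it in WT cells. Of the 21 measured smooth muscle and contractile genes 3 were lower (14.3%) and 0 higher. Actg2, a smooth muscle actin, read 539 in Tbk1-/- mock and 1981 in WT mock, Mylk, myosin light chain kinase, 125 and 616, and Csrp1, an actin-binding LIM protein, 3039 and 6180.4. Actg2 and Mylk went the other way on the Ikbke-/- background, with log2 ratios of 1.90 and 1.14.

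Developmental signalling genes were more often lower than higher. Of 47 measured Wnt, Bmp, Tgf-beta and Hedgehog genes, 12 were lower (25.5%) and 3 higher (6.38%), with a median of -0.41. Of all genes, 3.76% were lower and 2.52% higher. Of the 69 with a probe set, 37 reached the floor in Tbk1-/- mock and 46 in WT mock. Members measured through WT mock alone could not come out higher, which sets the counts and the median in part. Wnt5a, a Wnt ligand of outgrowing limb and face mesenchyme, read 101 in Tbk1-/- mock and 1013 in WT mock. Gdf10, a Bmp-like ligand, read 45.9 and 774, and Jag1, a Notch ligand, 53.7 and 692. A further, dimmer Wnt5a probe set gave a log2 ratio of -1.26 or lower. All 3 ligands were under the floor in Tbk1-/- cells, and Gdf10 was also lower in the Ikbke-/- background (10.7 and 424).

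Gas1, a surface protein that binds Hedgehog ligands, was exceptional in that its direction turned with treatment. It read 338 in Tbk1-/- mock and 3573 in WT mock, but 2282 in Tbk1-/- B-DNA and 586 in WT B-DNA. A further Gas1 probe set gave a log2 ratio of -1.66 in the mock pair, against -3.40 for the brighter one. The 3 higher genes were Sfrp1, a second secreted Wnt inhibitor (2572 and 641), the Wnt receptor Fzd6 (461 and 211) and Ltbp1, which holds latent Tgf-beta in the matrix (1688 and 801). A further Sfrp1 probe set gave 0.20 against 2.00. Wnt10a, a Wnt ligand of skin appendages and teeth that was not on that list, read 1385 and 169.6 (log2 ratio 3.03; limma 2.82, SE 0.27, adjusted p = 0.03).

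Growth factor genes went both ways, with 5 of 32 higher (15.6%) and 7 lower (21.9%), against 2.52% and 3.76% of all genes. On the lower side stood Igfbp5 and Ptn, given above, Igfbp6 (109.6 in Tbk1-/- mock and 1178 in WT mock, at least 9.64-fold), Igfbp3 (5.49 and 593) and Pdgfc (497 and 2617). Igfbp3 and Igfbp6 bind insulin-like growth factors, and Pdgfc is a ligand of Pdgfra. On the higher side stood Bdnf, a neurotrophin (730.0 and 284), the epidermal growth factor family ligand Ereg (5576 and 2360.1), the lymphatic growth factor Vegfd (1282 and 550.0), and the receptors Fgfr2 (1073 and 480.3) and Met (481 and 235). Of these, limma called Bdnf with an adjusted p of 0.0482.

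Imprinted genes, expressed from 1 parental copy and high in embryonic mesenchyme, also split. Of 18 measured, 4 were higher (22.2%) and 5 lower (27.8%), against 2.52% and 3.76% of all genes. Igf2, the fetal growth factor insulin-like growth factor 2, read 769.6 in Tbk1-/- mock and 6231 in WT mock (log2 ratio -3.02; limma -3.19, SE 0.21, adjusted p = 0.0144), and 3570.2 and 5745 in Tbk1-/- Ikbke-/- mock and Ikbke-/- mock. Tbk1-/- cells thus stood below the other 3 mock arrays for Igf2. Ndn (219 and 979), the amino acid transporter Slc38a4 (137 and 473), Mest (2401 and 5442) and Igf2r, the receptor that clears Igf2 (1217 and 2548), were the other lower ones. Dlk1, an inhibitor of fat cell formation, read 2981 in Tbk1-/- mock and 1005 in WT mock, but 11669.8 and 8695 in the Ikbke-/- background, where WT was the low culture. Cdkn1c, a cell cycle inhibitor, read 301 and 132, Impact 1816 and 708, and Peg3 788 and 331; a further Peg3 probe set gave 0.36.

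The genes with the highest ratios included markers of several tissues. Cnmd, the cartilage protein chondromodulin, read 2434 in Tbk1-/- mock and 44.6 in WT mock, at least 19.9-fold higher. It read 4.29 in Tbk1-/- Ikbke-/- mock and 18912 in Ikbke-/- mock, so its direction there was the opposite, and high Cnmd did not go with the Tbk1 genotype. Cd24a, a surface glycoprotein of immature cells, read 2121 and 154 (limma 3.59, SE 0.23, adjusted p = 0.0135), and 1464 and 993 in the Ikbke-/- background, where WT was again the low culture. Rgs17, a regulator of G protein signalling, read 1468 and 116, and 143 and 1582 in that background, also opposite.

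Npnt, nephronectin, a basement membrane ligand of integrins, read 3485 in Tbk1-/- mock and 295 in WT mock (log2 ratio 3.56). Cxcl12, the stromal chemokine that binds Cxcr4, read 16165 and 2433, and 24480.3 and 8879.7 in Tbk1-/- Ikbke-/- mock and Ikbke-/- mock, higher without Tbk1 in both. limma gave Cxcl12 a difference of 2.86 (SE 0.17, adjusted p = 0.0123). Ppbp, a chemokine precursor of platelets, was likewise higher in both pairs (1034 and 155, then 423 and 151). Tinagl1, a matricellular protein (4967 and 751), Mtm1, a lipid phosphatase (882 and 137), Gfra1, a receptor of glial cell line-derived factor (809 and 123), Cp, the copper carrier ceruloplasmin (899.8 and 137), and Osgin1, an oxidative stress response gene (1558 and 189), were also among the 15 genes with the highest ratios, as was Ndrg1, which is given below. A further Cp probe set, under the floor in WT mock, gave a log2 ratio of 1.18 or more.

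Genes that mark position along the body were examined next. None of 11 measured Hox genes was counted, with a median log2 ratio of 0.18, and most of the 31 on the array were low: 9 reached the floor in Tbk1-/- mock and 7 in WT mock. Of 29 other positional transcription factors, 3 were higher (10.3%) and 2 lower (6.90%), against 2.52% and 3.76% of all genes. Pax8, a factor of kidney and thyroid, read 740.4 in Tbk1-/- mock and 168 in WT mock, and between 174 and 192 on the 4 arrays of the Ikbke-/- genotypes. Gata6, of heart and gut mesoderm, read 364 and 144, and Foxf1, of the mesenchyme around gut and lung, 288 and 121. Six2, of kidney progenitors and facial mesenchyme, read 174 and 524, and Msx1, of limb and facial mesenchyme, 85.7 and 466. A further Msx1 probe set gave -0.93.

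Lists of markers of other cell types were small, and several had larger shares of counted genes than the 3.76% lower and 2.52% higher of all genes. Cartilage and bone genes had 2 of 17 higher (11.8%), Cnmd and Sox9 (836 in Tbk1-/- mock and 271 in WT mock), the transcription factor that specifies cartilage, and 3 lower (17.6%), among them the cartilage proteoglycan Acan (434 and 1009.8). Fat cell genes had 1 of 14 higher and 4 lower (28.6%), among them Lpl, lipoprotein lipase (89.2 and 699), Cebpa (187 and 481) and Scd1 (705 and 1708). Endothelial markers had 0 of 6 higher and 2 lower (33.3%), Flt1 (235 and 758) and Egfl7 (74.3 and 247). Of 8 skeletal and cardiac muscle genes Acta1 (128 and 589) was the 1 lower (12.5%), and of 17 neural and neural crest genes 3 were lower (17.6%), Tfap2a (122 and 259), Ncam1 (665 and 1365) and Cdh6 (133 and 271). None of 5 liver, blood and yolk sac genes was counted.

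Macrophage and leukocyte genes made up the group with the largest share of lower members. Of 36 measured markers 19 were lower (52.8%) and 0 higher, with a median log2 ratio of -1.36. A marker measured through WT mock alone could not come out higher in Tbk1-/- mock. Of the 43 with a probe set, 35 reached the floor in WT mock and 10 in Tbk1-/- mock. The choice of measured markers therefore sets the share, the 0 and the median in part. Lyz1 and Lyz2, the lysozymes of macrophages and neutrophils, read 3.73 and 146 in Tbk1-/- mock and 5903 and 4991 in WT mock, at least 48.3-fold lower for Lyz1 and 34.3-fold lower for Lyz2, and a further Lyz1 probe set gave a log2 ratio of -2.74 or lower. The complement chains C1qa, C1qb and C1qc read 9.02, 34.1 and 15.7 in Tbk1-/- mock and 1191, 1169 and 841 in WT mock. The adaptor Tyrobp (97.3 and 839), the protease Ctss (12.7 and 871), the surface protein Ms4a7 (65.9 and 877), the macrophage antigen Adgre1 (136 and 758), Cd68 (119.8 and 556), Plek (68.2 and 656) and the growth factor receptor Csf1r (423 and 1295) went the same way. Ptprc, the pan-leukocyte antigen CD45, read 28.4 and 151 and was not counted.

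The high array in this group was WT mock. Of the 43 markers with a probe set, 4 reached 244 in Tbk1-/- mock and 20 in WT mock, 4 in Tbk1-/- B-DNA and 15 in WT B-DNA, and 3 each in Tbk1-/- Ikbke-/- mock and Ikbke-/- mock. Their summed signal was 5986 in Tbk1-/- mock and 31837 in WT mock, 5108 in Tbk1-/- B-DNA and 12165 in WT B-DNA, and 5194 in Tbk1-/- Ikbke-/- mock and 6974 in Ikbke-/- mock. Of the 19 lower genes, 18 were 2-fold or more higher in WT mock than in both mock arrays of the Ikbke-/- genotypes, and 0 were that far lower in Tbk1-/- mock than in them. The limma fit called 2 of 36 lower, C1qc and the mannose receptor Mrc1. At the level of the floor, 10 of the 43 were reached in Tbk1-/- mock, 35 in WT mock, 10 in Tbk1-/- Ikbke-/- mock and 9 in Ikbke-/- mock. The WT mock array thus carried macrophage transcripts that were mostly under the floor on the other mock arrays, and their part in the other WT differences was not tested.

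That comparison with the remaining mock arrays was made for every counted gene, as a description. Of the 215 higher genes, Tbk1-/- mock lay 2-fold or more from both mock arrays of the Ikbke-/- genotypes in 68 and WT mock in 15, with 1 gene in both sets. Of the 321 lower genes, Tbk1-/- mock lay apart in 73 and WT mock in 77, with 3 in both. In the remaining 133 higher and 174 lower genes neither array lay apart from both.

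A part of the interferon-stimulated genes was lower in resting Tbk1-/- cells; of the 45 with a probe set, 11 reached 244 in Tbk1-/- mock and 19 in WT mock. Of 32 measured genes, 6 were lower (18.8%) and 1 higher (3.12%), against 3.76% and 2.52% of all genes. Their median log2 ratio was -0.55. The other 13 were under the floor on both arrays. Ifit1, which binds viral RNA lacking a host cap, read 65.1 in Tbk1-/- mock and 600.0 in WT mock, at least 4.91-fold lower. Its relative Ifit3 read 65.5 and 314 (at least 2.57-fold lower). Rtp4, an interferon-induced chaperone of membrane receptors, read 31.6 and 449.7 (at least 3.68-fold lower).

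Cxcl10, a chemokine that attracts activated T cells, read 161 in Tbk1-/- mock and 439.7 in WT mock (log2 ratio -1.45). Rsad2, the antiviral enzyme viperin, read 157 and 400.0 (-1.35), and Ifih1, the double-stranded RNA sensor MDA5, 133 and 273 (-1.03). Isg20, an RNA-degrading enzyme, was the 1 higher gene (525 and 251, 1.06). The lower 6 read between 273 and 600.0 in WT mock, far below their levels of 5097 to 23925 in WT B-DNA. With the floor at the 60th percentile, 1 of the 6 remained counted.

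The low resting level of a part of these genes was also seen where Tbk1 was absent from Ikbke-/- cells. In Tbk1-/- Ikbke-/- mock and Ikbke-/- mock, Ifit1 read 149 and 454, Rtp4 23.6 and 522, and Cxcl10 16.4 and 392. Ifit3 read 235 and 288, Rsad2 158 and 123, and Ifih1 156 and 128. Ifit1, Rtp4 and Cxcl10 were thus lower without Tbk1 in both resting pairs, and Ifit3, Rsad2 and Ifih1 were counted in the first alone. In the Ikbke-/- background 7 of 30 measured genes of the list were lower and 2 higher, with a median of 0.02. The macrophage sum was 5986 in Tbk1-/- mock, 31837 in WT mock and 6974 in Ikbke-/- mock, and the part of macrophage transcripts in these values was not tested. Rsad2 was the 1 of the 6 for which WT mock stood 2-fold apart from both mock arrays of the Ikbke-/- genotypes.

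The limma fit called Ifit1 (-2.20, SE 0.16, adjusted p = 0.0158) and Rtp4 (-1.76, SE 0.22, adjusted p = 0.0468), 2 of the 45. Both values rest partly on levels set to the floor. Mx1, an antiviral GTPase, was under the floor on both arrays (40.8 and 86.8), as was Ifnb1, the interferon beta gene (106 and 99.5). Irf7 read 194 in Tbk1-/- mock and 216 in WT mock, and Irf9, part of the complex that interferon activates, 171 and 293. After B-DNA, 0 of the 45 genes were higher and 42 lower in Tbk1-/- than in WT cells, with a median of -3.95.

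The promoters of the lower genes are shown because they share the interferon-stimulated response element, the site bound by the IRF and Stat-IRF9 complexes. Within 250 bases before to 50 after the RefSeq start (GRCm38.p6), the letters GAAA, any 2 bases and GAAA again were searched on both strands. The motif was found for all 5 lower genes with a promoter entry (Rtp4 has none in the table), for 12 of 20 genes of the list that were not counted and for 0 of 1 counted higher (Isg20). Of the 26 measured genes of the list with an entry 17 (65.4%) held it, against 3.99% of 27025 genes with a promoter and 3.85% of the 6938 measured. Most genes of the list held the motif, whether counted lower or not counted. The stretches below run 5′ to 3′ on the gene's strand, with the motif or its reverse complement in capitals, for Ifit1 at chr19:34640755-34640843 (+), Ifit3 at chr19:34583343-34583446 (+), Rsad2 at chr12:26456533-26456602 (-) and Cxcl10 at chr5:92349063-92349132 (-).
Ifit1: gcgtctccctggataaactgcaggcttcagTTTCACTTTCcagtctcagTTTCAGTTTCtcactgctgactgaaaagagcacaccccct
Ifit3: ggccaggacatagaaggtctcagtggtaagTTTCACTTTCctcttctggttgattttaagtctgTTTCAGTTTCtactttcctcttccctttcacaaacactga
Rsad2: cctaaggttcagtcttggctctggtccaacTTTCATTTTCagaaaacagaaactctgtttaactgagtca
Cxcl10: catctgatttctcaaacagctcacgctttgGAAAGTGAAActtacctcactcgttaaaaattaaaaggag
Ifit1 and Ifit3 each held the motif at 2 positions, the first of them 104 and 156 bases before the start, while Rsad2 and Cxcl10 held it once, 120 and 213 bases before the start; in Ifih1 the match began 32 bases after it.

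In the upstream pathway, 18 genes of interferon and nucleic acid sensing were measured. Tbk1 and Ifih1 were lower (11.1%, against 3.76% of all genes). Tank, an adaptor that binds TBK1, was higher (401 in Tbk1-/- mock and 149 in WT mock), which is 5.56% against 2.52% of all genes. Tank was not counted in the B-DNA pair (242 and 218) or the Ikbke-/- background (66.5 and 179). Irf3, the main substrate, read 988 and 1178, and the receptor chains Ifnar1 and Ifnar2 read 515 and 848 in Tbk1-/- mock and 559 and 758 in WT mock. Ikbke was under the floor on all 8 arrays. None of 14 genes of MHC class I presentation, an interferon-responsive pathway, was counted.

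Chemokines and cytokines were lower more often than higher, with 8 of 25 lower (32%) and 2 higher (8%), against 3.76% and 2.52% of all genes. Ccl20, which attracts Ccr6-bearing lymphocytes, read 43.3 in Tbk1-/- mock and 811 in WT mock, and Cxcl14 125 and 825. Ccl7, a monocyte attractant, read 733 and 2408, and 279 and 1377 in the Ikbke-/- background. Cxcl15 read 24.9 and 313. Cxcl14 and Ccl7 were thus lower without Tbk1 in both resting pairs, while Ccl20 was under the floor on both mock arrays of the Ikbke-/- genotypes. Ccl5, an interferon and NF-kB target, read 538 in Tbk1-/- mock and 841 in WT mock and was not counted. The higher genes were Cxcl12 and Il11, a cytokine of the interleukin 6 family (982 and 437). The macrophage sums given above differ between these arrays and their part in the chemokine values was not tested.

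NF-kB targets outside the chemokines were counted at about the share of all genes. Of 28 measured genes, 1 was higher, Icam1, a leukocyte adhesion molecule (883 in Tbk1-/- mock and 337 in WT mock), and 1 lower, Mmp3, which is 3.57% in each direction, with a median log2 ratio of 0.07. Icam1 did not differ in the B-DNA pair (log2 ratio -0.02). Of 26 genes of tumour necrosis factor signalling and apoptosis 0 were higher and 2 lower (7.69%, against 3.76% of all genes). The 2 were the death receptor Fas (66.7 and 295) and Ikbkg, the regulatory subunit of the IκB kinase (302 and 746). Further probe sets of Ikbkg gave -0.28 and -0.58.

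**Figure D3:**
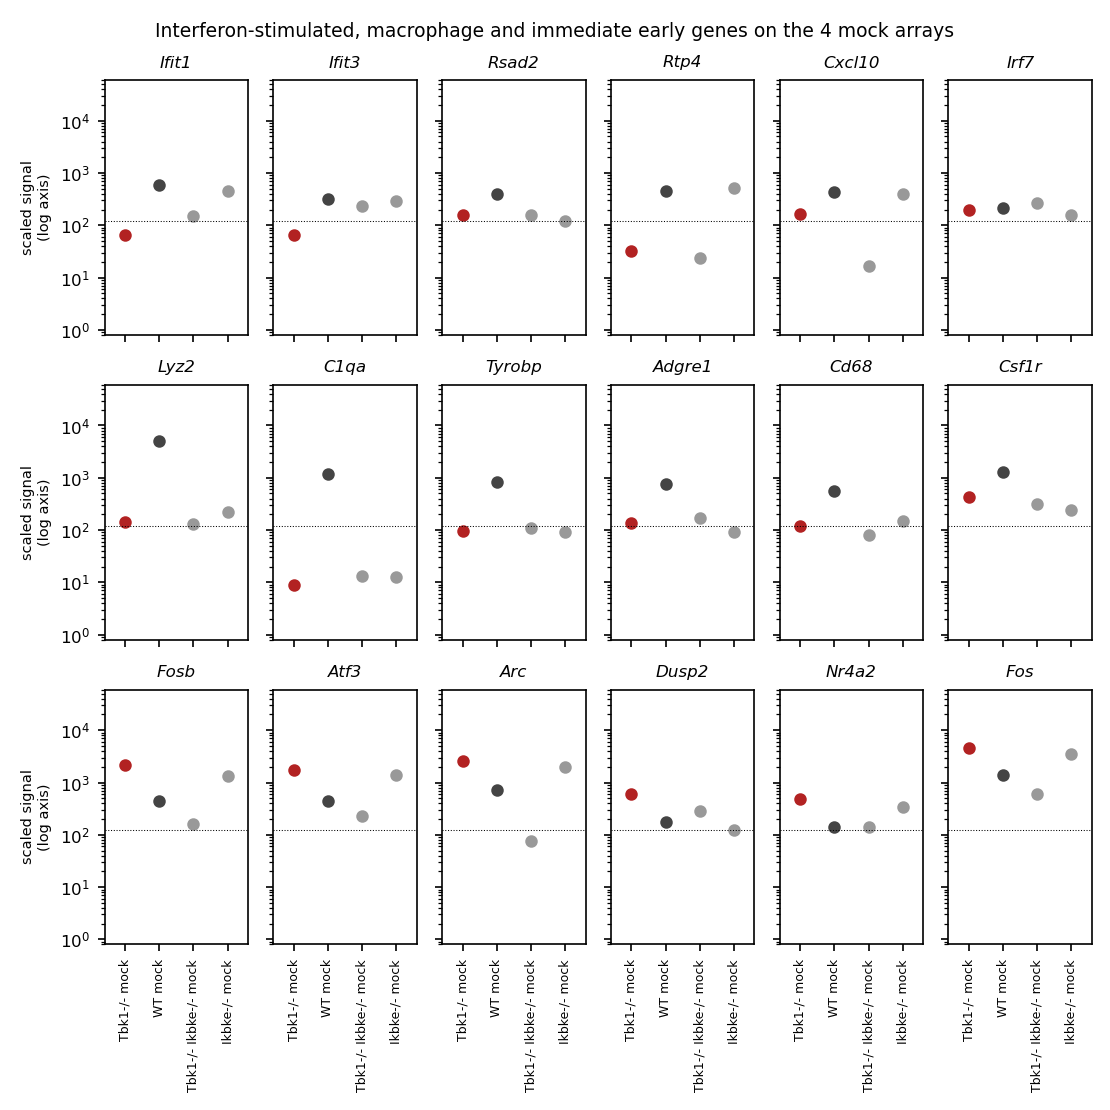
Scaled signal (log axis) of interferon-stimulated genes (top row), macrophage genes (middle row) and immediate early genes (bottom row) on the 4 mock arrays, with Tbk1-/- in red, WT in dark grey, the Ikbke-/- genotypes in light grey and the floor of 122 dotted. Macrophage genes are high on the WT mock array alone, Ifit1, Rtp4 and Cxcl10 are higher on both Tbk1+/+ arrays, and the immediate early genes shown, other than Dusp2, are lowest on the Tbk1-/- Ikbke-/- array.

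Immediate early genes, whose transcription starts within minutes of a growth factor or a stress, were higher in resting Tbk1-/- cells. Of 33 measured genes 11 were higher (33.3%, against 2.52% of all genes) and 0 lower, with a median log2 ratio of 0.68. Fosb, a subunit of the AP-1 transcription factor, read 2209 in Tbk1-/- mock and 439 in WT mock (log2 ratio 2.33), and Fos, its relative, 4556 and 1406 (1.70). Atf3, a stress-induced factor, read 1769 and 437 (2.02). Arc, best known as a synaptic protein, read 2623 and 708 (1.89), Dusp2, a phosphatase that switches off MAP kinases, 613 and 175 (1.81), and the orphan receptor Nr4a2 480.4 and 143 (1.75).

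The group did not move as one. Egr1, a serum-response transcription factor, read 6932 in Tbk1-/- mock and 8068 in WT mock, and Jun, the partner of Fos, 1866 and 2184, neither of them counted. In the B-DNA pair 9 of 33 were higher and 2 lower, with a median of 0.44. In Tbk1-/- Ikbke-/- mock over Ikbke-/- mock 1 was higher and 24 lower, with a median of -1.64, so the direction was opposite where Ikbke was absent as well. Fosb read 160.2 and 1321 there, and Arc 74.7 and 1992. The summed signal of the group was 100186 in Tbk1-/- mock and 67613 in WT mock, and 24575 in Tbk1-/- Ikbke-/- mock and 75950.0 in Ikbke-/- mock. The limma fit called 1 of the 33, the transcription factor Klf4. The cyclic AMP response element TGACGTCA was found in the promoters of 2 of the 10 higher genes with an entry, 3 of the 24 measured, 3.53% of the 6938 measured genes with a promoter and 2.03% of all genes with one.

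Cholesterol synthesis genes formed a second group with 1 direction. Of 19 measured genes 5 were higher (26.3%, against 2.52% of all genes) and 0 lower, with a median of 0.65, and 16 of the 19 ratios were above 0. Sc5d, a sterol desaturase, read 1537 in Tbk1-/- mock and 545 in WT mock, Idi1, an isomerase of the isoprenoid steps, 2612 and 1029, and Hmgcs1, the synthase that feeds the pathway, 9264 and 4422. Sqle, squalene epoxidase, read 4104 and 1923 and the demethylase Cyp51 2415 and 1159.5. A further Sc5d probe set gave a log2 ratio of 0.28, and further Hmgcs1 probe sets gave 0.82, 0.63 and 0.73, short of 2-fold. Further probe sets of Idi1 and Cyp51 gave 1.10 and 1.18, and a dim Cyp51 probe set 0.10. In the B-DNA pair 4 of 19 were higher and 0 lower, with a median of 0.35, and in the Ikbke-/- background 0 were higher and 10 lower, with a median of -1.28. No member passed the limma test.

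**Figure D4:**
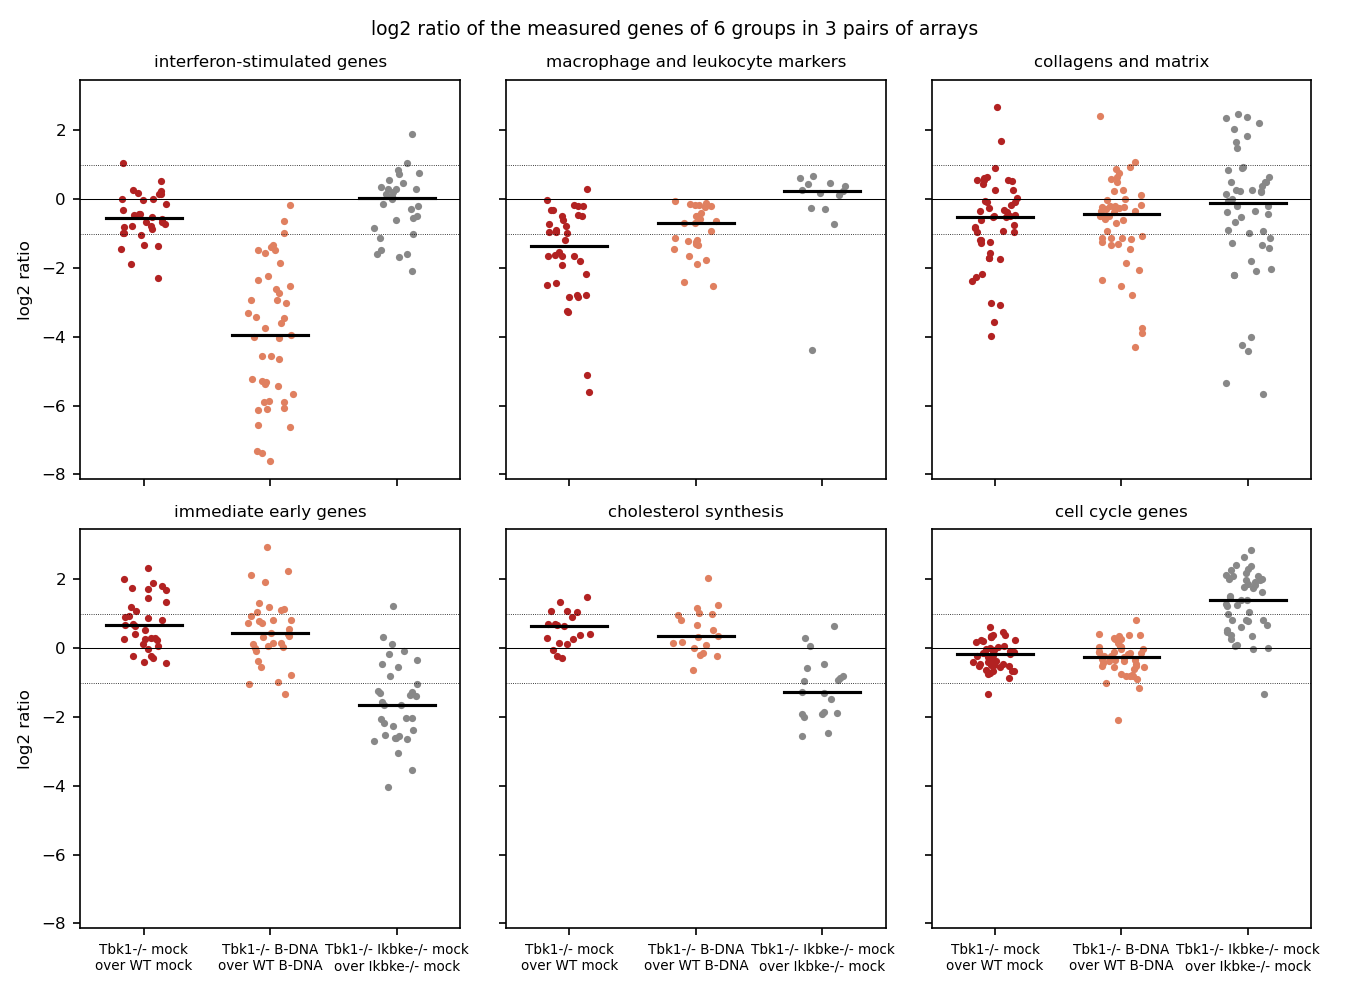
log2 ratio of each measured gene of 6 groups in 3 pairs of arrays that share no array, with points for genes, thick bars for the median and dotted lines at 2-fold. Medians of immediate early and cholesterol synthesis genes are 0.68 and 0.65 in the mock pair and -1.64 and -1.28 in the Ikbke-/- background, and that of interferon-stimulated genes is -0.55 in the mock pair and -3.95 in the B-DNA pair.

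Stress and metabolic genes differed singly, and their shares are set against 2.52% higher and 3.76% lower of all genes. Ndrg1, a gene induced by low oxygen and by differentiation, read 6215 in Tbk1-/- mock and 960.0 in WT mock (log2 ratio 2.69; limma 2.77, SE 0.15, adjusted p = 0.0109). The hexokinase gene Hk2 read 3186 and 1207. Ndrg1 and Hk2 were the higher ones of 22 hypoxia and glycolysis genes (9.09%). The kinase Pdk1 (99.0 and 268) was the 1 lower (4.55%). Of 15 heat shock and chaperone genes 3 were higher (20%) and 1 lower (6.67%). The higher ones were the small heat shock proteins Cryab (3632 and 915) and Hspb1 (11513 and 4909) and the inducible Hspa1b (2941 and 1460.1). The lower one was Hspb8 (553 and 1617), where a further probe set gave -0.62. Cryab and Hspb1 were again opposite in the Ikbke-/- background, at -1.03 and -1.31. Of 28 genes of the unfolded protein and amino acid stress responses, 2 were higher (7.14%) and 0 lower. The 2 were Nupr1 (4587 and 2239) and Ppp1r15a (1945 and 806).

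Among 35 oxidative stress and detoxification genes 3 were higher (8.57%) and 5 lower (14.3%), against 2.52% and 3.76% of all genes. The aldehyde dehydrogenases Aldh1a7 and Aldh1a1 read 362 and 319.6 in Tbk1-/- mock and 80.3 and 45 in WT mock, and the secreted peroxidase Gpx3 416 and 164. Mgst1, a microsomal glutathione transferase, read 59.8 and 645 (at least 5.28-fold lower), and Sod3, the extracellular superoxide dismutase, 699.8 and 2156. Ephx1, epoxide hydrolase, read 1209 and 2919, Gpx7 336 and 852, and glutathione reductase Gsr 393 and 861.

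Proliferation genes gave 1 counted gene. Of 45 measured cell cycle genes 0 were higher and 1 lower (2.22%), Ccnd1, the cyclin that starts the cycle after growth signals, with 2202 in Tbk1-/- mock and 5594 in WT mock (limma -1.29, SE 0.15, adjusted p = 0.0406). It was lower by a like amount in the Ikbke-/- background (2665 and 6695), where 28 of 45 cell cycle genes were counted higher without Tbk1 and the median was 1.40. Further Ccnd1 probe sets gave log2 ratios of -3.21 and -1.92 in the mock pair, against -1.34 for the brightest. The median of the list in the mock pair was -0.17. Of 28 p53 target and senescence genes 0 were higher and 4 lower (14.3%, against 3.76% of all genes). The 4 were Ephx1, Fas, Ccng1 (1639 and 3953) and Pmaip1 (198 and 453). A further Ccng1 probe set gave -0.45. None of 16 housekeeping genes was counted, and Actb read 17954 in Tbk1-/- mock and 24084 in WT mock.

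Adhesion and cell surface genes had 4 of 39 higher and 4 lower (10.3% each way), against 2.52% and 3.76% of all genes. Besides Cd24a and Icam1, the higher ones were Cd59a, an inhibitor of complement (1048 in Tbk1-/- mock and 380.2 in WT mock), and the ephrin receptor Epha2 (1399 and 619). Itga6, an integrin chain that binds laminin, read 74.9 and 721 (at least 5.90-fold lower), and Nrp2, a co-receptor of semaphorins and vascular growth factors, 266 and 589.7. Itga6 was lower without Tbk1 in the Ikbke-/- background too (235 and 844).

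**Figure D5:**
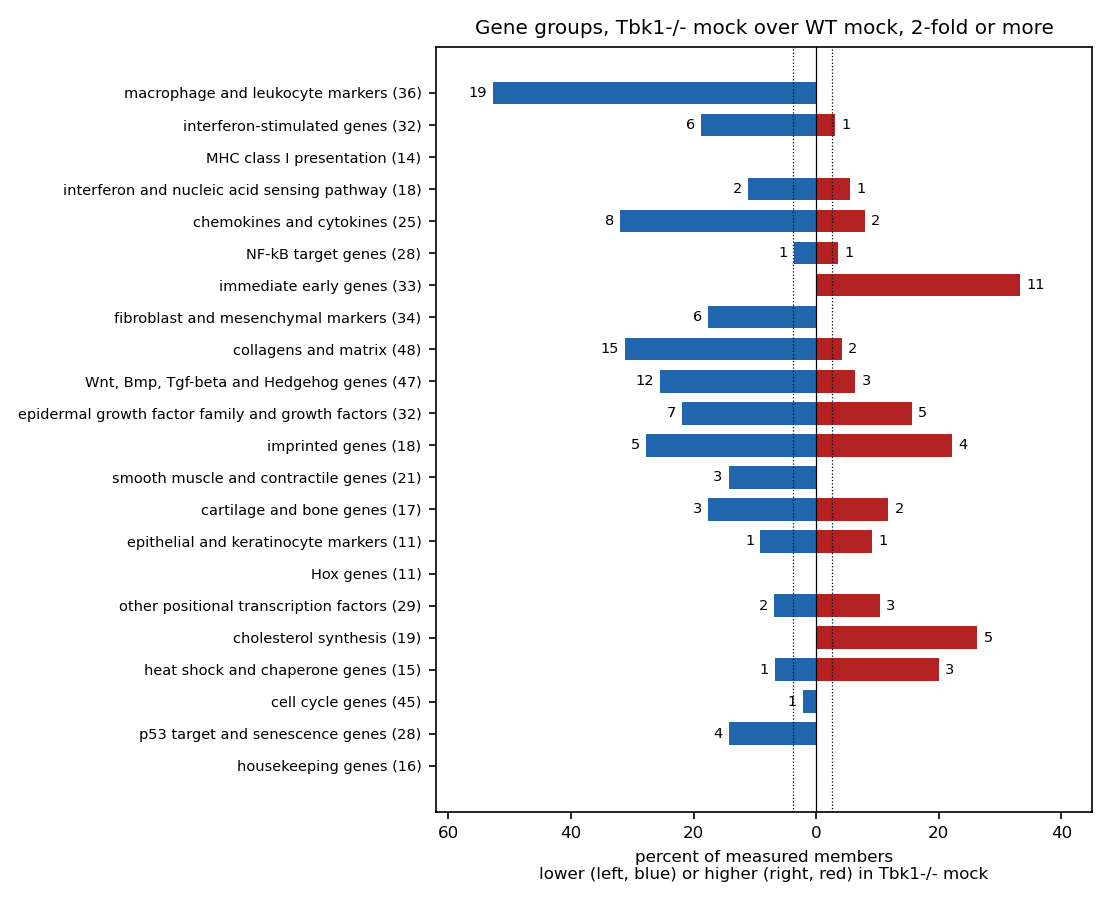
Percent of the measured members of 22 gene groups counted lower (left, blue) or higher (right, red) in Tbk1-/- mock than in WT mock, with the number of counted genes beside each bar, the number measured in brackets, and dotted lines at the shares of all genes (3.76% lower, 2.52% higher). Macrophage markers reach 52.8% lower, and immediate early and cholesterol synthesis genes 33.3% and 26.3% higher with 0 lower.

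The genes around Tbk1 on chromosome 10 were examined because the cells are of mixed strain. Of the 40 measured genes nearest to Tbk1, 20 on each side, 1 was higher and 3 lower, and the median log2 ratio was -0.15. The higher gene was Dtx3 (497 in Tbk1-/- mock and 245 in WT mock), and the lower ones were Lyz1, Lyz2 and Lgr5, a receptor of R-spondins (153 and 310.5). Both lysozyme genes are also on the list of macrophage markers.

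A small set of genes was counted in the same direction in each pair of Tbk1-/- and Tbk1+/+ arrays. Over the 4 pairs (WT or Ikbke-/- background, mock or B-DNA), 14 genes were counted higher and 39 lower in all 4. The share of all genes counted in Tbk1-/- Ikbke-/- B-DNA over Ikbke-/- B-DNA is not given here. The counts over all 4 pairs therefore have no share of all genes to be set against. In both mock pairs 25 genes were higher, 11.6% of the 215, near the 8.92% of all genes in the second pair. In both 59 were lower, 18.4% of the 321, against 7.14% of all genes. For Ifit1, Rtp4, Cxcl10 and Ccl7 the B-DNA pairs also hold the response to B-DNA. Ifit1, for one, read 600.0 in WT mock and 23925 in WT B-DNA. The 14 include Cxcl12, Ppbp, Col4a6, Mtm1, Gata6, Peg3 and Sfrp1, and the 39 include Aqp1, Aspn, Cpxm2, Crabp2, Ctsk, Cxcl14, Gdf10, Flt1, Igfbp3, Itga6, Itgbl1, Sod3, Ccnd1, Ccl7, Cxcl10, Ifit1 and Rtp4. Crabp2, which carries retinoic acid to its receptors, read 109 in Tbk1-/- mock and 1236 in WT mock, then 20.4 and 482 in Tbk1-/- Ikbke-/- mock and Ikbke-/- mock. Itgbl1, an integrin-related secreted protein, read 25.7 and 1051, then 147 and 398. Cpxm2, a carboxypeptidase-like protein, read 173 and 1383, then 125 and 667; a further probe set gave a log2 ratio of -1.13 or lower in the mock pair. Sulf2, a sulfatase of heparan sulfate that was among the 15 lowest in the mock pair, was not in this set, with 216 and 1978, then 1622 and 971. Each of these 4 genotypes is 1 culture as far as the labels tell, so agreement over the pairs joins 2 Tbk1-/- and 2 Tbk1+/+ cultures.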

How the data were processed

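RNA of fibroblasts of 4 genotypes after mock or B-DNA transfection was hybridised to 8 one-colour Affymetrix arrays, 1 for each genotype and treatment. The labels do not give the number of cultures. The deposited intensity values are linear MAS5 signals per probe set, which the authors computed in Microarray Suite 5.0, per the submitters' processing notes. Which scaling target they used, and whether cultures were pooled, is not given here. The array type in the study's text differs from the one whose annotation fits the probe sets.

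Of 22690 probe sets, 64 controls were left out. Probe sets were named from the platform annotation with symbols updated through RefSeq: 20380 had 1 symbol, 691 several and 1555 none. A gene was read from its probe set with the highest mean over the 8 arrays; some further ones are given beside it. Each array was scaled to a 2% trimmed mean of 500, values were floored at the 40th percentile, and log2 ratios were formed. The number of arrays limits the precision. Differences across all 8 arrays were fitted with limma 3.58.1 (R 4.3.3), 2-sided, with Benjamini-Hochberg adjustment over 9626 genes, and the fit was tested on simulated data. Other steps used Python 3.11.15, numpy 2.4.6, pandas 2.3.3 and matplotlib 3.10.9.

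Named genes are the 15 highest and 15 lowest ratios, up to 5 counted members of each of 34 lists in each direction (10 for interferon-stimulated, macrophage and Hox genes), up to 10 genes in each direction by limma, counted genes nearest to Tbk1, and a set of pathway, sex, fibroblast and macrophage genes. Fos, Klf4, Egr1, Jun, Cklf, Bdh1, Nkain4 and Vit were added after their values were seen. The comparison and the lists were chosen with earlier results of these data known, so their directions are not independent evidence. Alternatives were other scalings, floors, fold and signal minimums, probe set choices, and other limma designs.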

Additional observations from a re-analysis of the deposited data

Results flagged for a closer look

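Immediate early and cholesterol synthesis genes were flagged because their counted members had opposite directions in the resting pairs with and without Ikbke. With Ikbke, 11 and 5 were higher and 0 lower. Without it, 24 and 10 were lower, and 1 and 0 higher. Medians of other groups also had opposite signs, among them macrophage markers (-1.36 and 0.22) and cell cycle genes (-0.17 and 1.40). Immediate early genes had a median log2 ratio of 0.68 in Tbk1-/- mock over WT mock and of -1.64 in Tbk1-/- Ikbke-/- mock over Ikbke-/- mock. Cholesterol synthesis genes had a median of 0.65 in the first pair and of -1.28 in the second. With 1 array a group, the difference between the pairs was not tested. The pairs share no array, and each holds 2 cultures of its own.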

How the results depend on the processing

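The counts of the mock pair depended on the thresholds. At 3-fold or more, 58 genes were higher and 116 lower. With the floor at the 60th percentile 153 were higher and 164 lower, so that the excess of lower genes nearly disappeared, and with a minimum of 4 times the floor 164 were higher and 193 lower. With equal medians the excess turned, to 291 higher and 262 lower. The floor at the 60th percentile left 1 lower interferon-stimulated gene of 6, 4 lower chemokines and cytokines of 8 and 7 lower Wnt, Bmp, Tgf-beta and Hedgehog genes of 12. The limma counts, 56 higher and 96 lower, depended on the design: without a filter on low genes 1 was higher and 4 lower, with only genes above the floor on all arrays 108 were higher, and with 1 common treatment effect 110 were higher and 167 lower. With the 4 mock arrays only, the contrast was the Tbk1 difference averaged over the WT and Ikbke-/- backgrounds, not Tbk1-/- minus WT alone. There limma called 0 higher and 0 lower (230 genes at an unadjusted p under 0.05), and 14 of the 152 called genes had the other sign. Without each array in turn it called 0 to 0 in both directions (1172 to 1591 genes at an unadjusted p under 0.05). Those fits leave 1 residual degree of freedom and assume that a lone array varies like the others. Of the 152 called genes, 70 have a value under the floor on some array. No paired analysis was possible because each genotype has 1 array for a treatment, and the labels give no replicate numbers that join arrays. Signal near the floor limits ratios to bounds.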

Other observations

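Genes of chromosome 19 were shifted as a group in Tbk1-/- cells. Among genes above the floor on both mock arrays, the median log2 ratio of 271 chromosome 19 genes was 0.22 above that of all genes, where the medians of the 19 other chromosomes with enough genes lay between -0.08 and 0.06. In Tbk1-/- B-DNA over WT B-DNA the value was 0.31, with the others between -0.13 and 0.07. Tbk1-/- mock over Ikbke-/- mock gave 0.31 as well, with 82.8% of 262 genes above the median of all genes. WT mock over Ikbke-/- mock gave 0.05, and Tbk1-/- Ikbke-/- mock over Ikbke-/- mock gave 0.05 with the others between -0.18 and 0.33. Tbk1 itself lies on chromosome 10. Ifit1 and Ifit3, which were lower in Tbk1-/- mock, lie on chromosome 19. The comparisons of Tbk1-/- mock share that array, and the shift was seen after many chromosomes were looked at.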
